A study of Homo sapiens with 3 samples.

Results

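The genes described here encode the initiation and elongation factors of cytosolic protein synthesis, measured by RNA sequencing in DU145 cells. They were taken as the protein-coding genes whose symbol starts with EIF, EEF1 or EEF2, leaving out the lysine methyltransferases EEF1AKMT1 to 4 and EEF2KMT. By this rule 60 of the 23379 genes in the tables were members. The set was proposed because EIF3K and EEF1B2 were low in the L597R library, so the values of those genes in that library are a description and support nothing further. DU145 is a human cell line derived from a prostate cancer metastasis. There were 3 libraries, 1 per group: DU145 that received the BRAF L597R plasmid, DU145 overexpressing wild-type BRAF (WT), and a negative control (P-Enter). All groups share the DU145 background, and the sources used here do not state whether the transfections were transient or stable, or how long they lasted. Since each group is 1 library, no difference has replicates behind it and no p-value is given.

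Translation starts when eIF2 brings the initiator tRNA to the small ribosomal subunit, which eIF3, eIF1 and eIF1A hold open for scanning. The cap-binding complex eIF4F, made of the cap-binding protein eIF4E, the scaffold eIF4G and the helicase eIF4A, recruits the mRNA. eIF5 and eIF5B then take part in GTP hydrolysis and in joining of the large subunit. During elongation eEF1A delivers each aminoacyl-tRNA, the eEF1B complex reloads eEF1A with GTP, and eEF2 moves the ribosome along. The MNK kinases downstream of ERK phosphorylate eIF4E, which is one known tie between BRAF signalling and this machinery.

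The libraries held 16603676 (L597R), 15665132 (WT) and 13294004 (P-Enter) counted reads, worked out from the deposited FPKM (fragments scaled to gene length and to counted reads). Whole reads could be recovered for all 60 members, and ratios below are ratios of reads per counted read with an exact Clopper-Pearson 95% interval. These intervals cover counting error only, since copies made by the polymerase chain reaction are not independent molecules, and they compare libraries, not conditions. BRAF itself had 3733 reads in L597R, 1617 in WT and 514 in P-Enter, so mutant and level of BRAF cannot be told apart. Of markers used to check the labelled cells, VIM was at 132, 127 and 130 FPKM and KRT18 at 37.6, 36.6 and 34.3 FPKM in L597R, WT and P-Enter. KRT8 was at 0.534, 0.585 and 0.623 FPKM in that order, and the epithelial cadherin CDH1 had 0, 0 and 1 read. Values of a bulk library do not separate less RNA per cell from fewer cells that carry it.

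Many mRNAs of the translation machinery begin with a terminal oligopyrimidine tract, a C followed by a run of C and T, through which mTOR and LARP1 control their translation. RefSeq promoter windows on GRCh38.p14, from 250 bases before to 50 bases after each listed start, were matched by symbol for 49 of the 60 members. A C at the start base followed by C and T to a run of at least 5 was found at a listed start of 13 of these 49 genes (26.5%), against 1404 of 27305 genes in the whole table (5.14%). The stretches below show the listed starts of EIF3K, EEF1B2 and EIF5A, which the results turn on, of the most abundant members EEF1A1 and EEF2, and of EIF3F, another eIF3 gene with a tract. Each runs 5′ to 3′ on the gene's strand from 20 bases before the listed start to 25 bases from it onwards, and capitals mark the tract, where there is one, that begins at the start base.
EIF3K, chr19:38619168-38619212, plus strand: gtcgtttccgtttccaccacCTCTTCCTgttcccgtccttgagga
EEF1B2, downstream start, chr2:206159875-206159919, plus strand: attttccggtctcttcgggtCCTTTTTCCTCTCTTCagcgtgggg
EEF1B2, upstream start, chr2:206159589-206159633, plus strand: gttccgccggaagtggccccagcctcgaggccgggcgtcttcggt
EEF1A1, chr6:73521008-73521052, minus strand: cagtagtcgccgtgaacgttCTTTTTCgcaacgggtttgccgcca
EEF2, chr19:3985439-3985483, minus strand: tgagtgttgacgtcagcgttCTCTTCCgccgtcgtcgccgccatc
EIF3F, chr11:7987317-7987361, plus strand: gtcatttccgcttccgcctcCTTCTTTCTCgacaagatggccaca
EIF5A, most upstream start, chr17:7306979-7307023, plus strand: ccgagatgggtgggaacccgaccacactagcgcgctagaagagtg
The longest tract among the 49 genes, 16 bases, stood at the downstream start of EEF1B2, while its upstream start and the 6 listed starts of EIF5A had none. EIF3K had 8 bases. The other genes with a tract were EIF2A, EIF2D, EIF2S3, EIF2S3B, EIF3D, EIF3M, EIF4A2 and EIF4B. A tract in these letters describes the listed start and does not show where transcription begins in DU145 cells.

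The ETS core CCGGAAG, searched on both strands of the same windows, was present at 15 of the 49 genes (30.6%), EEF1B2 among them, against 12.2% of all genes. The E-box CACGTG, bound by MYC and MAX, was present at 13 of the 49 (26.5%), EIF4E and EIF3K among them, against 8.78% of all genes. All genes here, as for the tract, means every gene with a listed window, expressed in DU145 cells or not. No comparison with genes of matched expression was made, so these shares are not shown to be particular to the set.

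Elongation factors were at the top of the set. EEF1A1, the GTPase that carries aminoacyl-tRNA, was at 1485 FPKM in L597R, 1604 in WT and 1687 in P-Enter. EEF2, the translocase, was at 987, 1083 and 1081 FPKM in that order. Together the 60 members took 3.25% of the counted reads in L597R, 3.40% in WT and 3.46% in P-Enter. EEF1A1 alone made up 46.0%, 47.5% and 49.0% of those member reads. Without EEF1A1 and EEF2 the remaining members took 1.36% of counted reads in L597R, 1.35% in WT and 1.33% in P-Enter, so the lower total in L597R lay in the elongation factors. At the other end 5 members had a mean below 1 FPKM, namely EIF4A1, EIF4EBP3, EIF2AK3, EEF1A2 and EEF2K.

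**Figure D1:**
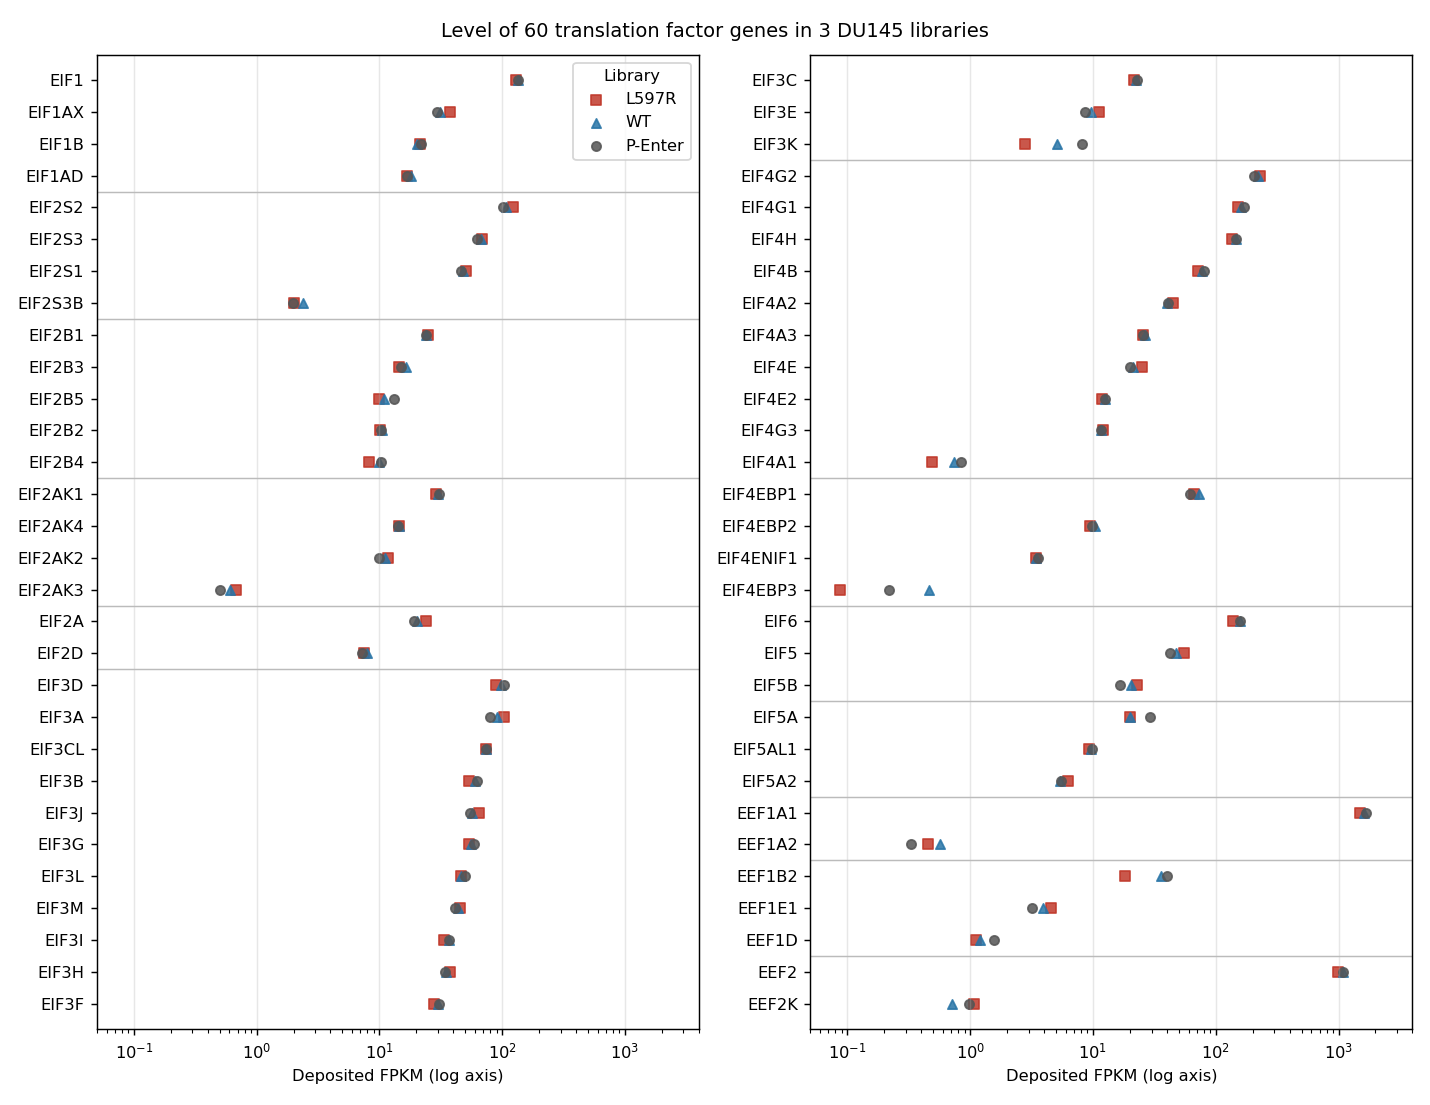
Deposited FPKM (log axis) of the 60 factor genes in L597R (squares), WT (triangles) and P-Enter (circles), grouped by role between grey lines. The symbols of most genes lie on top of each other; EIF3K (2.80, 5.13 and 8.12 FPKM) and EEF1B2 (18.1, 35.7 and 40.3 FPKM) are spread out, with L597R lowest.

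FPKM depends on the gene length that the authors used, which could be read back from the values. It lay within 10% of the exon length in GENCODE 29 for 49 of the 60 members and was over 1.5 times that length for 6, EEF1A1, EIF3E, EIF3F, EIF3I, EIF4H and EIF2AK3. EIF3E, for example, was counted over 37761 bases against 6005 in the annotation. Its deposited level of 11.2, 9.60 and 8.66 FPKM in L597R, WT and P-Enter would be 70.2, 60.4 and 54.5 FPKM at the annotated length. EIF3I would be at 190, 208 and 209 FPKM in place of 33.6, 36.7 and 36.9. Orders of level between genes are therefore given on the deposited scale with this limit, while ratios between libraries do not depend on length.

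Over the set, few differences were large. The size rule asked for a log2(FPKM + 1) difference of at least 1 in either direction and a mean of at least 1 FPKM. Between WT and P-Enter 0 of 60 members passed the size rule, where 0.978% of the 10639 genes with a mean of at least 1 FPKM and 0.118% of the 9358 protein-coding ones did. Between L597R and P-Enter 2 members passed, EIF3K and EEF1B2, both lower, beside 0.508% of all genes and 0.0962% of protein-coding genes that were lower. The set was chosen with this comparison in view, so nothing is read from that count. Between L597R and WT 0 members passed, beside 0.724% of all genes and 0.0748% of protein-coding genes. Of the 55 members with a mean of at least 1 FPKM, the median log2 difference was 0.00 for WT over P-Enter, -0.02 for L597R over P-Enter and -0.06 for L597R over WT. Over all 10639 genes these medians were 0.00, -0.01 and 0.01. Within 0.25 of zero lay 52, 39 and 52 of the 55 members in these comparisons (94.5%, 70.9% and 94.5%), beside 93.0%, 75.1% and 88.7% of protein-coding genes.

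Small differences beyond counting error were common in the set, as in the libraries at large. For WT over P-Enter the interval lay above 1 for 11 of 55 members and below 1 for 12, beside 15.3% and 12.6% of protein-coding genes. For L597R over P-Enter it lay above 1 for 18 and below 1 for 20, beside 28.0% and 25.7%. For L597R over WT it lay above 1 for 15 and below 1 for 18, beside 24.0% and 17.5%. As shares of the 55 members, the counts for L597R over P-Enter were 32.7% and 36.4%, and those for L597R over WT 27.3% and 32.7%. Intervals narrow with the number of reads, and no comparison with genes of matched read number was made.

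**Figure D2:**
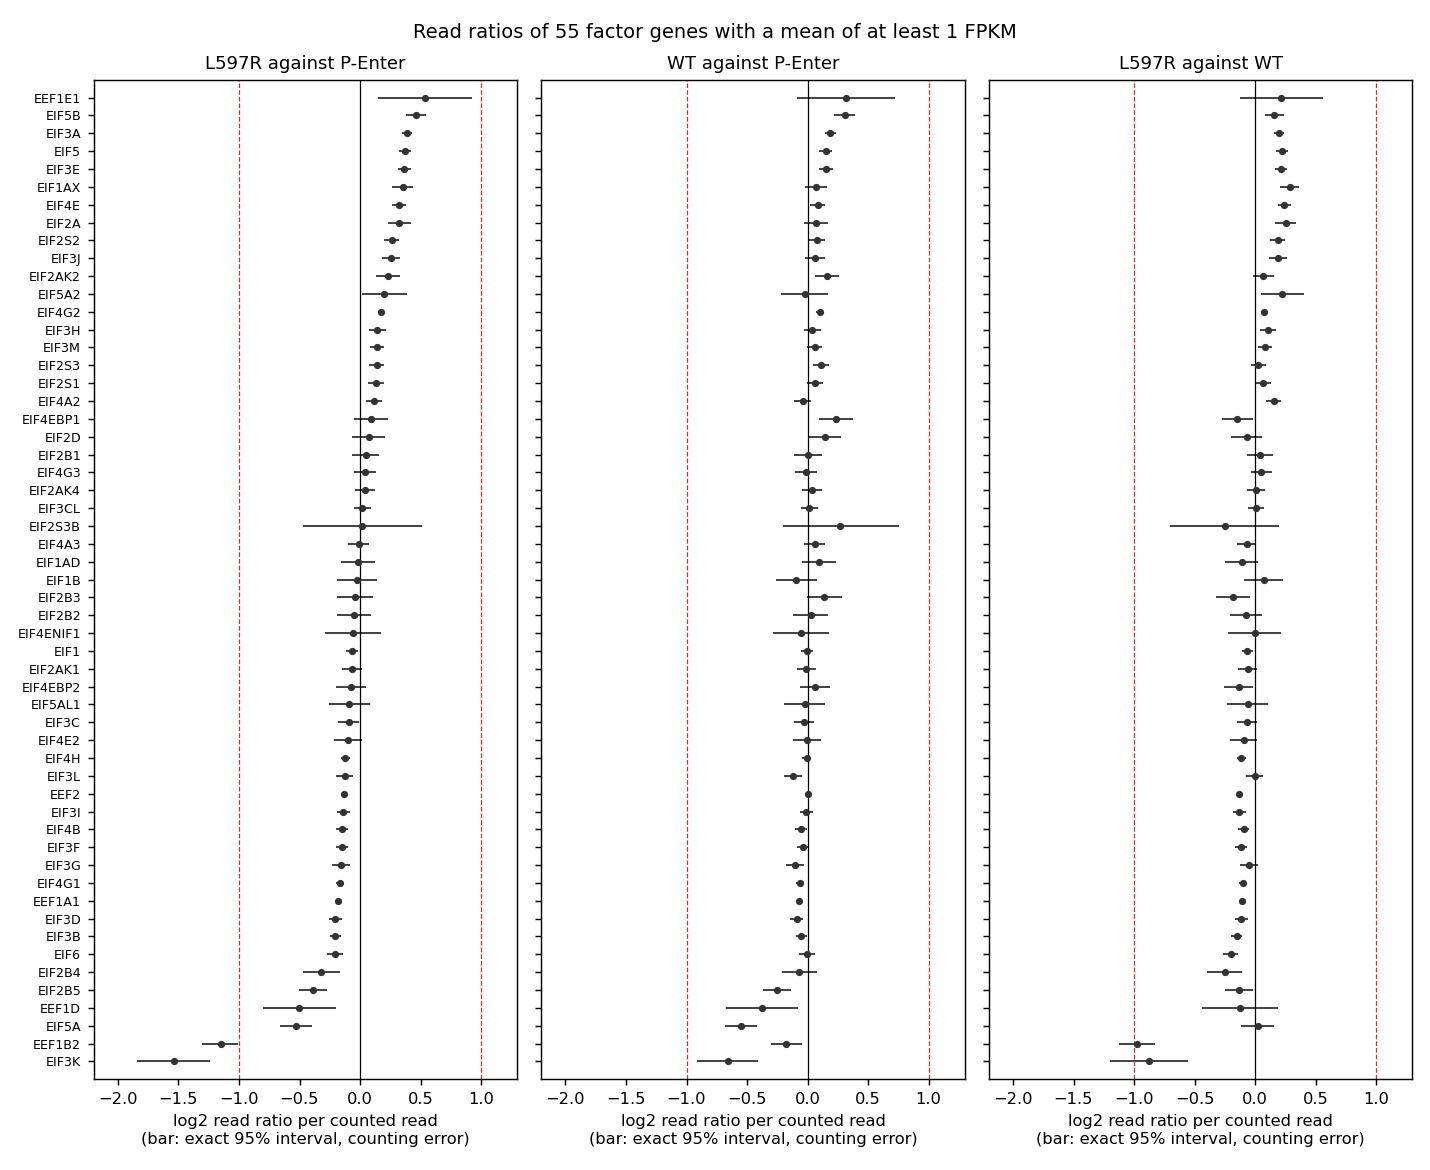
Log2 read ratio per counted read of the 55 members with a mean of at least 1 FPKM, for L597R over P-Enter, WT over P-Enter and L597R over WT; bars are exact 95% intervals of the counting error, dashed lines mark a 2-fold difference, and genes run from the highest (top) to the lowest ratio of L597R over P-Enter. EIF3K and EEF1B2 stand apart at the bottom, and EIF5A lies to the left in both comparisons with P-Enter but at zero between L597R and WT.

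The eIF3 complex, which organises the scanning ribosome, held the member with the largest difference in the set. EIF3K (ENSG00000178982; chromosome 19 from 38619082 to 38636955, plus strand, GRCh38) encodes a small peripheral subunit. It had 130 reads (2.80 FPKM) in L597R, 225 (5.13 FPKM) in WT and 302 (8.12 FPKM) in P-Enter. The level was thus lowest in L597R, and WT lay between L597R and the control. The read ratio was 0.345 (0.278 to 0.425) for L597R over P-Enter, 0.632 (0.530 to 0.754) for WT over P-Enter and 0.545 (0.436 to 0.679) for L597R over WT. By the size rule EIF3K was lower in L597R than in P-Enter, with a log2(FPKM + 1) difference of -1.26. The other comparisons gave -0.57 and -0.69. With a pseudocount of 5 in place of 1 the difference from P-Enter was -0.75, short of the rule.

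No other eIF3 subunit came near that difference, and the subunits lay on both sides of zero. In L597R over P-Enter 6 of the 14 eIF3 genes were above and 8 below, with a median log2 difference of -0.11. EIF3A, the large scaffold subunit, was at 104 FPKM in L597R, 90.7 in WT and 79.5 in P-Enter, with a read ratio of 1.31 (1.27 to 1.35) for L597R over P-Enter. EIF3E, EIF3J, EIF3H and EIF3M were also above P-Enter in L597R, with read ratios of 1.29, 1.19, 1.11 and 1.10. These were the 5 eIF3 genes whose interval lay above 1. EIF3B, a core subunit, had a read ratio of 0.868 (0.841 to 0.896), and EIF3D, known to bind the cap of some mRNAs, one of 0.869 (0.837 to 0.902). EIF3F, EIF3G, EIF3I, EIF3L and EIF3C had read ratios from 0.898 to 0.936, each with an interval below 1. Between WT and P-Enter the interval lay above 1 for EIF3A (1.14, 1.11 to 1.18) and EIF3E (1.11, 1.07 to 1.15). It lay below 1 for EIF3K, EIF3L, EIF3G, EIF3D and EIF3B. EIF3C and its near-identical copy EIF3CL were at 21.4 and 74.3 FPKM in L597R, 22.4 and 73.98 in WT, and 22.9 and 73.3 in P-Enter, and reads shared by the pair may be split between them.

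EIF3K was also low against the rest of its complex in every library. In P-Enter the other 13 eIF3 genes ranged from 8.66 to 103 FPKM on the deposited scale, the lowest being EIF3E with its long counted length, and EIF3K stood below them at 8.12 FPKM. ACTN4, the next gene of the tables downstream, which encodes an actin crosslinker, starts 10694 bases beyond EIF3K on the same strand. ACTN4 had 188 reads (1.86 FPKM) in L597R, 299 (3.13 FPKM) in WT and 358 (4.41 FPKM) in P-Enter, in the same order as EIF3K. Its read ratio was 0.421 (0.350 to 0.503) for L597R over P-Enter and 0.709 (0.606 to 0.829) for WT over P-Enter. On the other side MAP4K1 ends 200 bases before EIF3K and had 3, 0 and 3 reads. FAM98C, the next gene of the tables on that side, lies 209994 bases away and had a read ratio of 0.901 (0.732 to 1.11) for L597R over P-Enter. The part of the shared locus in the value of EIF3K was not tested. The annotation release and strand setting of the counting are not given in the sources used here, so the level of EIF3K mRNA is uncertain.

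In the eEF1B complex, the exchange factor of eEF1A, EEF1B2 was the other gene past the size rule. EEF1B2 (ENSG00000114942; chromosome 2 from 206159585 to 206162928, plus strand) encodes the catalytic beta subunit. It had 577 reads (18.1 FPKM) in L597R, 1072 (35.7 FPKM) in WT and 1027 (40.3 FPKM) in P-Enter. L597R stood apart, while WT and P-Enter were close together. The read ratio was 0.450 (0.406 to 0.499) for L597R over P-Enter, 0.508 (0.458 to 0.562) for L597R over WT and 0.886 (0.812 to 0.966) for WT over P-Enter. On the log2(FPKM + 1) scale these were -1.11, -0.94 and -0.17, and with a pseudocount of 5 the first was -0.97, short of the rule. NDUFS1, which overlaps the start of EEF1B2 on the other strand, did not share the difference, with 8.94 FPKM in L597R, 7.87 in WT and 7.64 in P-Enter.

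A pseudogene of EEF1B2 had a higher level per length than the gene in all 3 libraries, though fewer reads in WT and P-Enter. It did not show the low value in L597R. EEF1B2P3, on chromosome X, had 1016 reads (90.3 FPKM) in L597R, 1006 (94.7 FPKM) in WT and 889 (98.6 FPKM) in P-Enter. Its read ratio was 0.915 (0.836 to 1.002) for L597R over P-Enter and 0.953 (0.872 to 1.04) for L597R over WT. Summed over EEF1B2 and its 4 copies in the tables, reads were 1671 in L597R, 2164 in WT and 1983 in P-Enter. That sum, an alternative chosen after the values were seen, gave a ratio of 0.675 (0.632 to 0.720) for L597R over P-Enter, a log2 ratio of -0.57, which would not pass the size rule. How reads were divided between the gene and its copies is not given in the sources used here, so the level of EEF1B2 mRNA is uncertain. The sum gives only the case in which all counted reads of the copies belong to EEF1B2.

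**Figure D3:**
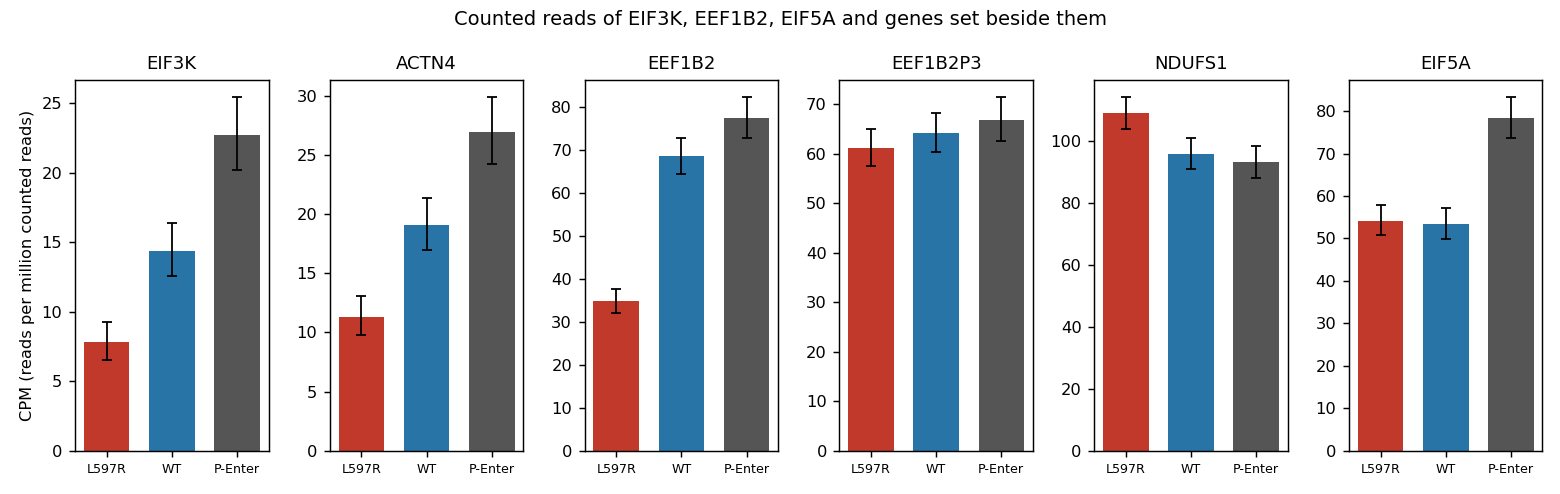
Counted reads scaled to library size (CPM) in L597R, WT and P-Enter for EIF3K, its neighbour ACTN4, EEF1B2, its pseudogene EEF1B2P3, the overlapping gene NDUFS1, and EIF5A; bars start at 0 and lines are exact 95% intervals of the counting error. ACTN4 has the same order as EIF3K, EEF1B2P3 and NDUFS1 do not follow EEF1B2, and EIF5A is high in P-Enter alone (54.2, 53.4 and 78.3 CPM).

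The partners of EEF1B2 did not show a difference of that size. EEF1D, the delta subunit that is a second exchange factor, was at 1.11 FPKM in L597R, 1.21 in WT and 1.57 in P-Enter, from 173, 178 and 196 reads. Its read ratio was 0.707 (0.573 to 0.872) for L597R over P-Enter and 0.771 (0.626 to 0.949) for WT over P-Enter, so its value was low in both BRAF libraries. EEF1E1, a scaffold protein of the multi-tRNA synthetase complex, was at 4.59, 3.94 and 3.17 FPKM, with a ratio of 1.45 (1.11 to 1.90) for L597R over P-Enter. The gamma subunit EEF1G was not analysed here. EEF1A1 itself had a ratio of 0.881 (0.876 to 0.886) for L597R over P-Enter and 0.951 (0.946 to 0.957) for WT over P-Enter. The muscle and nerve form EEF1A2 had 36, 43 and 21 reads in L597R, WT and P-Enter, near the limit of what this depth can resolve. EEF2 had a ratio of 0.913 (0.903 to 0.923) for L597R over P-Enter and 1.002 (0.991 to 1.01) for WT over P-Enter, so only the L597R interval lay away from 1. EEF2K, the kinase that inhibits eEF2, had 142, 90 and 105 reads in L597R, WT and P-Enter. Its ratio was 1.08 (0.836 to 1.41) for L597R over P-Enter, 0.727 (0.543 to 0.973) for WT over P-Enter and 1.49 (1.14 to 1.96) for L597R over WT, so WT was the low library.

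Copies complicated other members as well. Of 41 annotated pseudogenes named after a member, 16 had a mean of at least 1 FPKM. By FPKM, which is scaled to length, 6 were above their parent gene in all 3 libraries. EIF4A1, the main eIF4A helicase, had 42 reads (0.487 FPKM) in L597R, 60 (0.737 FPKM) in WT and 58 (0.839 FPKM) in P-Enter. Its copy EIF4A1P10 was at 37.2, 32.7 and 36.9 FPKM in the same order. Summed over EIF4A1 and its copies, reads were only 819 in L597R, 718 in WT and 674 in P-Enter. EIF4A2 had 4537, 3843 and 3357 reads in that order. How reads were assigned between the parent, its copies and any overlapping genes was not tested, so the level of EIF4A1 mRNA is uncertain. EEF1A1P5, a copy of EEF1A1, was at 1422 FPKM in L597R, 1461 in WT and 1514 in P-Enter, close to its parent on the deposited scale only. At the annotated length EEF1A1 would be at 2513, 2714 and 2853 FPKM in that order. By reads the copy had 32801, 31779 and 27958, against 248139, 252855 and 225620 for EEF1A1.

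The 3 subunits of eIF2, which carries the initiator tRNA, all had ratios above 1 in both BRAF libraries, by small amounts. EIF2S2 (beta) was at 122 FPKM in L597R, 108 in WT and 102 in P-Enter, with a ratio of 1.20 (1.15 to 1.25) for L597R over P-Enter. EIF2S1 (alpha, the subunit phosphorylated under stress) had 1.09 (1.04 to 1.14) and EIF2S3 (gamma) 1.10 (1.05 to 1.15) in that comparison. For WT over P-Enter these ratios were 1.05 (1.01 to 1.10) for EIF2S2, 1.04 (0.996 to 1.09) for EIF2S1 and 1.08 (1.03 to 1.13) for EIF2S3. All differences were far below the size rule. A regression on length, GC content and level is given below. After it, EIF2S1 stood at -0.08, EIF2S3 at 0.03 and EIF2S2 at 0.23 for L597R over P-Enter. EIF2S3B, a near-identical copy of EIF2S3, had 81, 91 and 64 reads and shares sequence with it.

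The 5 subunits of eIF2B, the factor that recharges eIF2 with GTP, did not exceed the control by more than counting error in L597R. EIF2B5 (epsilon, the catalytic subunit) was at 10.01 FPKM in L597R, 10.95 in WT and 13.1 in P-Enter, with ratios of 0.766 (0.707 to 0.829) for L597R and 0.838 (0.774 to 0.907) for WT over P-Enter. EIF2B4 (delta) was at 8.31, 9.89 and 10.4 FPKM and had a ratio of 0.802 (0.723 to 0.889) for L597R over P-Enter. Both were lowest in L597R and highest in P-Enter. EIF2B1, EIF2B2 and EIF2B3 had ratios between 0.965 and 1.03 in that comparison, with intervals that include 1. EIF2B3 was at 14.6 FPKM in L597R, 16.5 in WT and 15.0 in P-Enter.

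The kinases that phosphorylate eIF2 alpha differed little. EIF2AK2, the kinase PKR that senses double-stranded RNA, was at 11.7 FPKM in L597R, 11.1 in WT and 9.95 in P-Enter (1.17, 1.10 to 1.26, for L597R and 1.12, 1.04 to 1.20, for WT over P-Enter). EIF2AK1 (HRI) and EIF2AK4 (GCN2) had intervals that include 1 in all 3 comparisons, at 29.01, 30.2 and 30.4 FPKM and at 14.5, 14.4 and 14.1 FPKM. EIF2AK3 (PERK), below the filter, had 235, 196 and 139 reads and a ratio of 1.35 (1.09 to 1.68) for L597R over P-Enter. Of the factors that can deliver initiator tRNA outside eIF2, EIF2A was at 24.0, 20.1 and 19.2 FPKM (1.25, 1.17 to 1.34, for L597R over P-Enter) and EIF2D at 7.54, 7.91 and 7.17 FPKM.

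Within eIF4F the cap-binding subunit and the scaffold lay on opposite sides before the regression on length, GC content and level given below. EIF4E was at 25.01 FPKM in L597R, 21.2 in WT and 19.96 in P-Enter, with ratios of 1.25 (1.20 to 1.304) for L597R and 1.06 (1.02 to 1.10) for WT over P-Enter. EIF4G1, the main scaffold, was at 151, 162 and 169 FPKM, with ratios of 0.891 (0.874 to 0.908) and 0.956 (0.938 to 0.975). EIF4G2, a scaffold that does not bind eIF4E, had the highest level of any initiation factor on the deposited scale, at 231, 220 and 206 FPKM, with a ratio of 1.13 (1.11 to 1.14) for L597R over P-Enter. EIF4G3 had intervals that include 1 in all comparisons. The helicase EIF4A2 was at 44.6, 40.0 and 41.2 FPKM (1.08, 1.03 to 1.13, for L597R over P-Enter), and EIF4A3, a subunit of the exon junction complex, at 25.4, 26.7 and 25.6 FPKM. EIF4B and EIF4H, which stimulate the helicase, had ratios of 0.902 (0.872 to 0.933) and 0.920 (0.897 to 0.943) for L597R over P-Enter. EIF4E2, a cap-binding repressor, was at 11.8, 12.6 and 12.7 FPKM. EIF4E1B and EIF4E3 were not analysed here.

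The repressors that bind eIF4E were led by EIF4EBP1, a target of mTOR. It was at 66.1 FPKM in L597R, 73.2 in WT and 62.1 in P-Enter. The ratio was 1.18 (1.07 to 1.297) for WT over P-Enter and 0.903 (0.826 to 0.988) for L597R over WT, so WT was the highest library. EIF4EBP2 was at 9.38, 10.3 and 9.90 FPKM and EIF4ENIF1, which shuttles eIF4E, at 3.45, 3.45 and 3.59 FPKM. EIF4EBP3 had 1, 5 and 2 reads, too few for a comparison.

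Among the scanning factors EIF1AX was the one with a higher value in L597R. It was at 37.7 FPKM in L597R, 30.9 in WT and 29.5 in P-Enter, with ratios of 1.28 (1.20 to 1.36) against P-Enter and 1.22 (1.15 to 1.29) against WT. EIF1, which guards start codon choice, was at 129.6, 135.5 and 135.8 FPKM, with a ratio of 0.954 (0.923 to 0.986) for L597R over P-Enter. EIF1B had intervals that include 1 in all comparisons. The same held for EIF1AD, a member by its symbol that is not taken here as a scanning factor.

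At subunit joining, EIF5B had the highest and EIF5 the third highest log2 difference of L597R from P-Enter among members with a mean of at least 5 FPKM. EIF5B, the GTPase of subunit joining, was at 22.9 FPKM in L597R, 20.6 in WT and 16.6 in P-Enter, with ratios of 1.38 (1.299 to 1.46) and 1.24 (1.16 to 1.31) against P-Enter. EIF5, the GTPase activator of eIF2, was at 55.2, 47.3 and 42.7 FPKM, with ratios of 1.29 (1.25 to 1.34) and 1.11 (1.07 to 1.15). Both were highest in L597R with WT in between. EIF6, which keeps the large subunit from joining too early, lay the other way at 137, 158 and 158 FPKM, with a ratio of 0.868 (0.829 to 0.909) for L597R and 0.999 (0.954 to 1.05) for WT over P-Enter.

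EIF5A, the hypusine-carrying factor that helps ribosomes through stalling sequences, had lower values in both BRAF libraries. It was at 20.2 FPKM in L597R, 19.9 in WT and 29.2 in P-Enter, from 900, 837 and 1041 reads. The BRAF libraries differed by less than counting error (1.01, 0.922 to 1.12, for L597R over WT), and the ratio against P-Enter was 0.692 (0.632 to 0.757) in L597R and 0.682 (0.622 to 0.748) in WT. Both ratios rest on the same P-Enter library, and GPS2 overlaps EIF5A on the other strand in the annotation. EIF5A was the member next outside the size rule for L597R over P-Enter, at -0.51, after EEF1B2 just inside it at -1.11. EIF5A2 was at 6.28, 5.38 and 5.47 FPKM and the near-identical EIF5AL1 at 9.28, 9.69 and 9.86 FPKM. The copy EIF5AP4 had 320, 363 and 322 reads, a ratio of 0.796 (0.680 to 0.932) for L597R and 0.957 (0.821 to 1.12) for WT over P-Enter.

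The smaller differences went with base composition. Across the 55 members the log2 difference of L597R from P-Enter had a Spearman correlation of -0.78 with the GC content of the longest transcript, a description across genes of the same libraries. It was -0.54 for WT over P-Enter and -0.72 for L597R over WT. Over the 9358 protein-coding genes it was -0.69 for L597R over P-Enter, -0.45 for WT over P-Enter and -0.59 for L597R over WT. Members above the control in L597R, such as EIF1AX, EIF5B and EIF4E, had 35.15%, 38.6% and 39.0% GC. Members below it, such as EIF6, EIF4G1 and EIF3B, had 58.0%, 57.4% and 56.0%. EIF4EBP1, at 65.5%, did not follow the trend.

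After a regression of the differences on gene length, GC content and level over protein-coding genes, EIF3K and EEF1B2 kept their place and most others came closer to zero. The residual for L597R over P-Enter was -1.17 for EIF3K and -1.09 for EEF1B2, both still past the rule. EIF5A was at -0.37 (and -0.46 for WT over P-Enter) and EIF2B5 at -0.31. EIF3F moved away from zero, to -0.34 from -0.146. It was counted over 15136 bases against 9431 in the annotation, and the part of that length in its residual was not tested. EIF3A was then highest at 0.30, EIF2S2 was at 0.23 and EIF5 at 0.22, while EIF5B went to 0.20 in place of 0.44. Several members named above ended near zero: EIF4E at 0.07, EIF4G1 at 0.0004, EIF1AX at 0.001, EIF3E at 0.002 and EIF6 at -0.04. EIF2S3 and EIF3J were at 0.03. Members that changed sign were EIF3M (-0.11), EIF2S1 (-0.08) and EIF3H (-0.04), among others. Of the 55 members 49 then lay within 0.25 of zero, in place of 39. The part of GC content in the remaining differences was not tested beyond this.

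**Figure D4:**
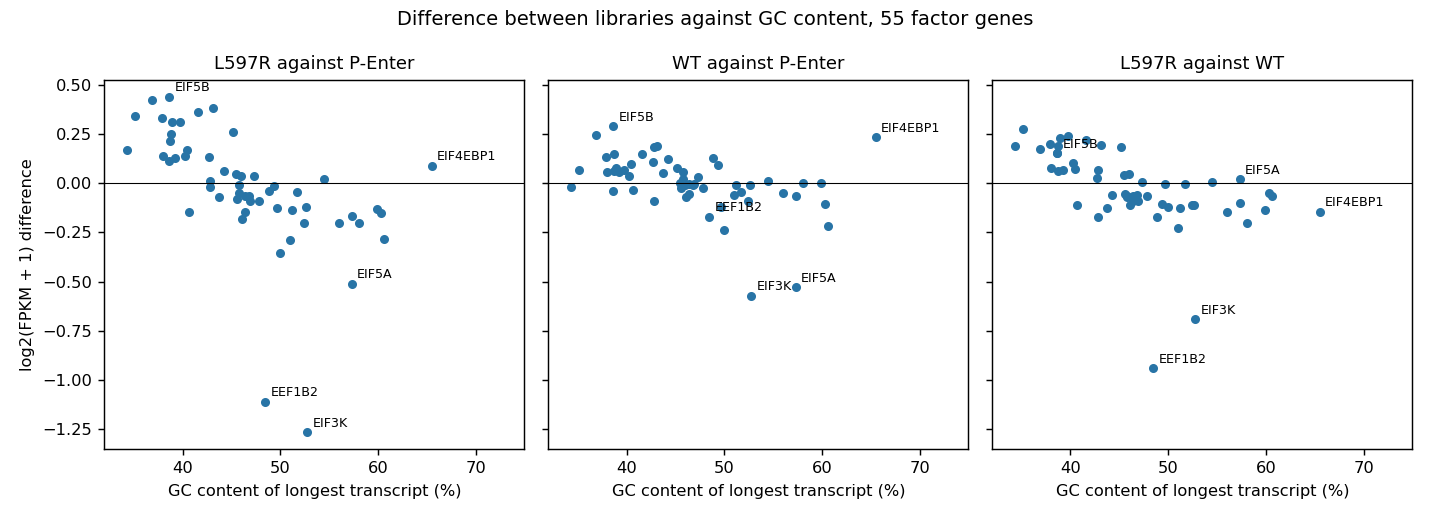
Log2(FPKM + 1) difference of the 55 members against the GC content (%) of their longest GENCODE 29 transcript in the 3 comparisons; each point is 1 gene. The points slope downward most in L597R over P-Enter (Spearman -0.78), and EIF3K and EEF1B2 lie far below the slope.

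Other genes of translation, taken from a list of regulators, termination, modification and mitochondrial factors, showed no member past the size rule in any comparison. Among the 50 listed genes that were measured, 47 had a mean of at least 1 FPKM. Their median log2 difference was -0.02 for WT over P-Enter, 0.02 for L597R over P-Enter and 0.06 for L597R over WT. The interval lay above 1 for 15 and below 1 for 12 of the 47 in L597R over P-Enter, beside the 28.0% and 25.7% of protein-coding genes given above. Among those with a mean of 5 FPKM or more the highest was DDIT3, the stress transcription factor CHOP, at 7.05 FPKM in L597R, 5.37 in WT and 4.55 in P-Enter (1.55, 1.17 to 2.06). The lowest was DPH5, an enzyme that builds the diphthamide residue of eEF2, at 26.8, 28.6 and 31.5 FPKM (0.851, 0.787 to 0.920). For WT over P-Enter the highest was DHX29, a helicase that helps scanning (1.20, 1.10 to 1.302), and the lowest MKNK2, which encodes an eIF4E kinase (0.893, 0.828 to 0.963). For L597R over WT the highest was PAIP2, a repressor of the poly(A)-binding protein, at 20.3 against 15.75 FPKM (1.29, 1.18 to 1.42), and the lowest DPH2 at 18.0 against 20.2 FPKM (0.891, 0.811 to 0.978).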

How the data were processed

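Total RNA of 3 DU145 samples was isolated with Trizol and sequenced from stranded mRNA libraries, per the labels' protocols. Each deposited table holds Ensembl gene IDs and their FPKM, per the file headers. The tools named are HISAT2, HTSeq, Cufflinks and Trimmomatic, with the build hg38 or GRCh38, per the submitters' processing notes; versions, strand setting and annotation release are not given in the sources used here, so reads of overlapping, antisense or near-identical genes cannot be assigned with certainty.

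Members and lists were chosen with earlier results of these data known. Symbols came from a gene name table (23330 of 23379 IDs), types, positions and lengths from GENCODE 29 (22807 IDs). Library totals were found as the most common product of FPKM and exon length, and gene lengths by a search for whole reads in all 3 libraries within 1e-05, which succeeded for 99.8% of genes. The size rule used a pseudocount of 1, a mean of at least 1 FPKM and a 2-fold difference; no count model was fitted. Size rule, intervals and read recovery were tested on simulated data. Named in full were EIF3K, EEF1B2 and members past the rule. Also named were the 5 highest and 5 lowest per comparison among members averaging 5 FPKM or more. The ends of each role group, subunits of eIF2, eIF3, eIF4F and eEF1, and neighbours of EIF3K and EEF1B2 were named too. So were the ends of the list of other genes. The pseudogenes and remaining members were added after their values were seen. Alternatives were other pseudocounts, filters, thresholds, rescaling, a regression and recovered reads. The work used matplotlib 3.10.9, scipy 1.17.1, pandas 2.3.3, numpy 2.4.6 and Python 3.11.15.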

Additional observations from a re-analysis of the deposited data

How the results depend on the processing

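No paired analysis was possible because each group has 1 library, and no library could be left out. The count of 2 members lower in L597R than in P-Enter was 0 with a pseudocount of 5 and 0 with a 4-fold threshold, where few changes can pass by construction. It was 2 under every other alternative run. Of genes with a mean of at least 1 FPKM, 0.0658% passed in either direction with a pseudocount of 5. At 4-fold 0.150% passed, and at 1.5-fold 3.03%. After the regression 0.0855% of protein-coding genes passed. For L597R over WT the count of 0 became 2 at a 1.5-fold threshold (EEF1B2 and EIF3K, both lower). There 2.23% of all genes with a mean of at least 1 FPKM passed in either direction. It became 1 (EEF1B2) where the read interval had to lie past 1.5-fold, beside 0.357% of such genes. For WT over P-Enter the count was 0 under all 9 alternatives, with 2.19% of all such genes past the 1.5-fold threshold. The EIF3K difference between L597R and P-Enter was -0.75 with a pseudocount of 5. With its pseudogene copies added, an alternative chosen after seeing the data, EEF1B2 was at -0.57 against P-Enter and -0.46 against WT. The other 30 values of both genes differed from the main value by less than its counting error. All values of both genes kept their direction, and the medians lay between -0.06 and 0.01 throughout. Depth limits members with few reads, such as EIF4EBP3, EEF1A2 and EIF4A1.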

Other observations

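Pseudogenes of initiation factors differed in how far their values followed those of their parent genes. EIF4EP2, a copy of the cap-binding factor EIF4E on chromosome 17, was at 36.7 FPKM in L597R, 32.9 in WT and 22.7 in P-Enter. These came from 398, 337 and 197 reads, where EIF4E had 6192, 4941 and 3957. The read ratio of EIF4EP2 was 1.62 (1.36 to 1.93) for L597R and 1.45 (1.21 to 1.74) for WT over P-Enter, where EIF4E had 1.25 and 1.06. EIF1AXP1, a copy of EIF1AX on chromosome 1, was at 49.98 FPKM in L597R, 39.5 in WT and 43.4 in P-Enter. It was above its parent per length in each library, but with 361, 269 and 251 reads against 2761, 2139 and 1732. The ratio of EIF1AXP1 was 1.27 (1.08 to 1.49) for L597R over WT, beside 1.22 for its parent. For L597R over P-Enter it was 1.15 (0.978 to 1.36), beside 1.28. EIF2S2P4 was at 41.9, 37.3 and 33.2 FPKM, with a ratio of 1.26 (1.12 to 1.43) for L597R over P-Enter, beside 1.20 for its parent. These genes were chosen after their values were seen.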
